A study of Homo sapiens with 12 samples.

Results

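Midkine (MDK) and 5 cell-surface proteins that bind it, the syndecans SDC1, SDC3 and SDC4, the LDL receptor-related protein LRP1 and nucleolin (NCL), were followed in breast cancer tissue grown beside liver or heart tissue. The 6 genes were picked by symbol out of the 58735 Ensembl genes of the count table, and all 6 passed the filter on low counts. They were chosen with the differences between these groups already known, so their own differences are given below as a description, without p-values.

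The cancer tissue was made of MDA-MB-231 cells, a triple-negative human breast cancer line, carrying green fluorescent protein and embedded in fibrin gel in a perfused plate with connected wells. In the hepatic co-culture the neighbouring tissue held HepG2 cells, a human liver cancer line, with 2% lung fibroblasts. In the cardiac co-culture it held cardiomyocytes made from induced pluripotent stem cells, mixed with cardiac fibroblasts at 2%, and in the monoculture the cancer tissue was grown without a second tissue. RNA was taken from the cancer tissue alone, 5 days after the cancer cells were seeded, with 4 libraries in each of the 3 groups. Every group rests on a single cancer line, and HepG2 stands for liver as a tumour line rather than as primary hepatocytes. The labels call the libraries biological replicates without naming the cultures behind them, so the p-values below measure the spread between these libraries.

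Midkine is a small, secreted, heparin-binding growth factor that is abundant in the embryo, low in most adult tissues and raised in many carcinomas, liver cancer among them. It has no single dedicated receptor. It binds the sulfated sugar chains of cell-surface proteoglycans such as the syndecans, and signals through assemblies that can include LRP1, the phosphatase PTPRZ1, the kinase ALK and integrins containing ITGB1. LRP1 and nucleolin have also been linked to its uptake into the cell.

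The part of midkine that holds heparin most tightly lies in its C-terminal domain, which ends in a lysine-rich tail. The last 99 coding bases of MDK are shown for that tail, with the codons for lysine in capitals. They were read from GRCh38 with the GENCODE 29 annotation, on the plus strand of chr11:46382673-46383491, across an intron. Of these 33 codons, 9 are lysine codons, out of 23 among the 143 codons of the whole coding sequence.
MDK tail: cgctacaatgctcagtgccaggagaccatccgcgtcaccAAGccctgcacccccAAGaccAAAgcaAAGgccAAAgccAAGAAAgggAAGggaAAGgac

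The syndecans carry the sugar chains on their outer part and share a short cytoplasmic tail, whose end is held by adaptor proteins with PDZ domains, such as syntenin (SDCBP), CASK and GIPC1. The last 99 coding bases of the 3 syndecans are shown because that shared end is what makes them a family, with the final 12 bases in capitals. All 3 lie on the minus strand, SDC1 at chr2:20202769-20202867, SDC3 at chr1:30873214-30873312 and SDC4 at chr20:45327267-45327365.
SDC1 tail: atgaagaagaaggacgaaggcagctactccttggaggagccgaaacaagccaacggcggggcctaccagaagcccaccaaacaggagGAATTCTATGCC
SDC3 tail: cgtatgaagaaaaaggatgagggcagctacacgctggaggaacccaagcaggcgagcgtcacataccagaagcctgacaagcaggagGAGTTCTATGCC
SDC4 tail: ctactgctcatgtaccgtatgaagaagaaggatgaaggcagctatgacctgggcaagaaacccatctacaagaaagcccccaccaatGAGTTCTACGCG

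Aligned without gaps from the end, SDC1 and SDC3 were identical at 57 of the 99 bases (57.6%) and at 11 of the 12 capitals. SDC4 matched SDC1 at 33.3% of the bases and at 9 of the 12 capitals, and SDC3 at 34.3% and 10. The stretch that begins atgaagaa lies further in from the left in SDC4 than in SDC1 or SDC3. It also begins later in SDC3 than in SDC1. Without gaps it falls out of register in every pair, so none of these percentages measures how alike the tails are. None of the 50-base words in the transcripts of MDK, SDC1, SDC3 or SDC4 occurred in a transcript of another gene. In LRP1, 0.385% of the words were shared, with the antisense RNA LRP1-AS and with STAT6, which overlap it on the other strand by 112 and 59 exon bases. LRP1-AS had 9 counts in all libraries together, and STAT6 had 71947. In NCL, 0.226% of the words were shared, with RGPD4-AS1 and the pseudogene NCLP1.

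The libraries held 26.2 to 42.4 M counts in hepatic co-culture, 27.0 to 37.4 M in cardiac co-culture and 35.0 to 42.0 M in monoculture (M for 1e6). One library stood apart from its group. Along the axis of largest variance (28.5% of it, by principal component analysis), cardiac replicate 4 lay at -24.9, beside monoculture replicate 2 at -22.3, while cardiac replicates 1 to 3 lay between 6.79 and 16.3 and the hepatic libraries between 24.5 and 46.8. For MDK, SDC1, SDC4 and LRP1 the cardiac value over monoculture is given without it as well, and so are several counts below. The 8 genes used as high markers of MDA-MB-231 cells, such as VIM and CD44, summed to 4471 to 4819 counts per 1e6 counts (CPM) in hepatic co-culture, 4088 to 4302 CPM in cardiac co-culture and 4096 to 4461 CPM in monoculture. By edgeR (adjusted p under 0.05), 3 of the 8 were higher and 3 lower in hepatic co-culture over monoculture. In cardiac co-culture over monoculture 0 were higher and 3 lower, and in cardiac over hepatic co-culture 0 passed. Another 7 epithelial and hormone-receptor genes that this line lacks or holds low summed to at most 19.0 CPM in any library. Of the 4 of these tested, 1 was higher in hepatic co-culture over monoculture and 1 lower in cardiac over hepatic co-culture. In cardiac co-culture over monoculture 0 passed. The sums thus do not show that single markers were steady.

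Midkine, the ligand, lies on the plus strand of chromosome 11 (46380756 to 46383837, GRCh38; ENSG00000110492). MDK stood at 55.7, 45.4, 54.4 and 50.8 CPM in hepatic replicates 1 to 4, at 32.4, 36.9, 31.0 and 33.3 CPM in cardiac replicates 1 to 4, and at 18.5, 20.4, 17.4 and 17.2 CPM in monoculture replicates 1 to 4. Every hepatic library lay above every cardiac library, and every cardiac library above every monoculture library. The means were 51.6 ± 4.58, 33.4 ± 2.53 and 18.4 ± 1.45 CPM in hepatic co-culture, cardiac co-culture and monoculture (SD, n = 4 each), from 1329 to 1923, 885 to 1265 and 621 to 799 counts per library. The spread within each group was small beside the distance between the groups.

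The log2 fold change of MDK was 1.49 ± 0.09 (SE) in hepatic co-culture over monoculture, a 2.80-fold higher level. It was 0.86 ± 0.09 in cardiac co-culture over monoculture, 1.82-fold higher, and -0.63 ± 0.09 in cardiac over hepatic co-culture, 1.54-fold lower. These values come from 1 edgeR fit over all 12 libraries, in which a gene counted as called when its adjusted p was under 0.05. MDK was past that threshold in all 3 comparisons, which share libraries pairwise, and stayed past it under all 17 other settings tried. Since MDK was chosen with these differences known, and the settings reuse the same libraries, this is a description and not a test. Cardiac replicate 4 did not stand apart for MDK, at 33.3 CPM among 31.0 to 36.9 CPM, and the cardiac log2 fold change without it was 0.86.

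**Figure D1:**
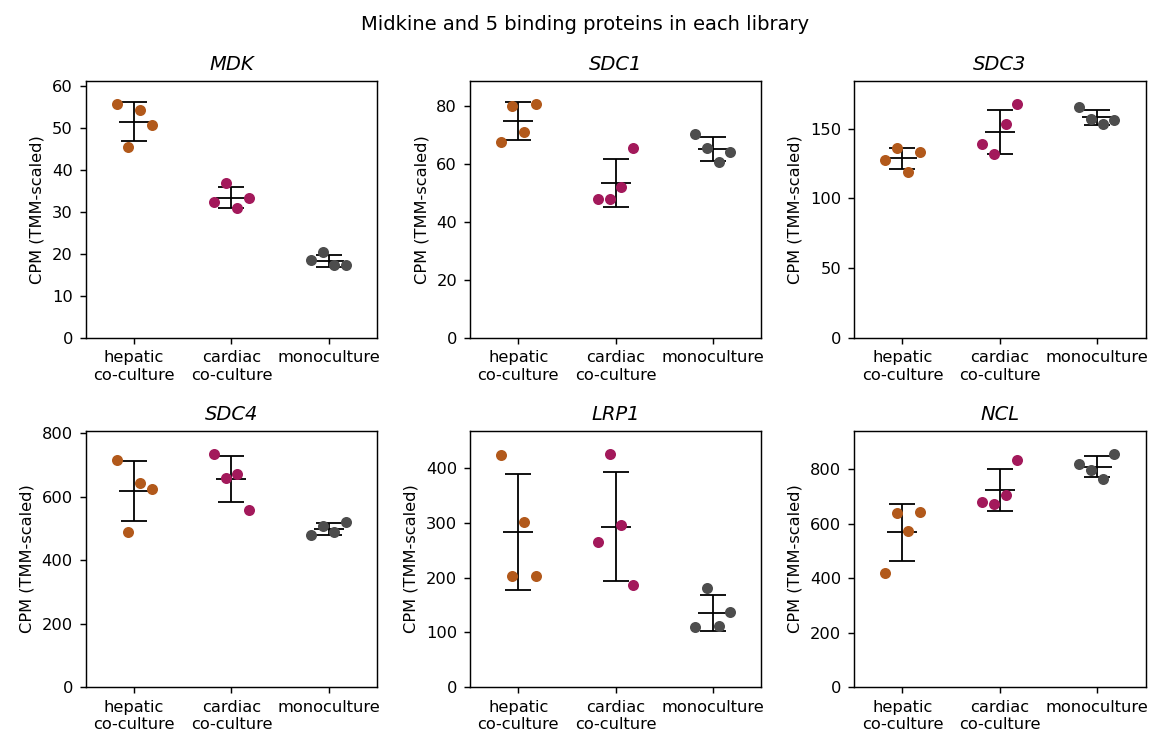
TMM-scaled CPM of MDK, SDC1, SDC3, SDC4, LRP1 and NCL in each library of hepatic co-culture, cardiac co-culture and monoculture; points are libraries, and black marks give the mean and SD (n = 4). MDK libraries fall into 3 separate bands around 51.6, 33.4 and 18.4 CPM, while the groups of SDC1 and SDC4 overlap in part and LRP1 ranges from 187 to 425 CPM within cardiac co-culture.

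RNA of the neighbouring tissues in the sample was measured through marker genes beside these values. The defining hepatocyte genes were at or near 0 in hepatic co-culture: albumin (ALB) had 0 to 6 counts per library, against 0 to 14 in monoculture, and APOA1 1 to 4, against 0 to 4. APOB and APOA2 were at 0 in all 4 hepatic libraries. Over all 15 hepatocyte markers the summed level was 35.2 to 58.7 CPM in hepatic co-culture, 70.3 to 96.3 CPM in cardiac co-culture and 42.4 to 74.6 CPM in monoculture. Nearly all of it was SERPINA1, with 880 to 2272 counts per hepatic, 2250 to 2766 per cardiac and 1479 to 3208 per monoculture library. The hepatocyte sum of each hepatic library lay within or below the monoculture range. Since SERPINA1 was also high in monoculture, the sum cannot show how much HepG2 RNA was present. The part of such RNA in the MDK difference was not tested.

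The 15 cardiomyocyte markers summed to 19.6 to 21.7 CPM in hepatic co-culture, 19.0 to 21.3 CPM in cardiac co-culture and 15.4 to 19.4 CPM in monoculture. Most of that sum was TTN, the sarcomere protein titin, at 19.2 ± 0.51, 17.4 ± 1.68 and 14.7 ± 1.97 CPM in these groups. In cardiac replicate 4 the atrial and fetal myosin genes MYH6 and MYL7 had 21 and 8 counts, and both were at 0 in every other library. ACTN2 had 0 to 8 counts per cardiac library, with 1 cardiac library at 0, and was at 0 in all hepatic and monoculture libraries. NPPA had 0 to 10 counts per cardiac, 2 to 6 per hepatic and 0 to 7 per monoculture library. The 11 fibroblast markers summed to 12.1 to 24.8, 15.5 to 18.2 and 15.8 to 22.8 CPM in hepatic co-culture, cardiac co-culture and monoculture, with THY1, POSTN and DPT at 0 in all 12 libraries. COL1A1 averaged 8.49 ± 2.69, 6.05 ± 1.26 and 5.95 ± 0.42 CPM in the same order of groups. Single fibroblast markers went both ways in hepatic co-culture, and of 7 tested 2 were called higher and 2 lower there. The collagen genes COL1A2 and COL3A1 were higher, at 4.55 ± 1.92 and 0.634 ± 0.283 CPM in hepatic co-culture, against 1.56 ± 0.591 and 0.0891 ± 0.163 CPM in monoculture. FBLN1 and DCN were lower, at 0.856 ± 0.149 and 0.278 ± 0.118 CPM in hepatic co-culture, against 6.12 ± 0.984 and 2.48 ± 1.08 CPM in monoculture. Their part in the MDK difference was not tested. In bulk RNA, fewer cells with a transcript and less of it per cell cannot be told apart.

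**Figure D2:**
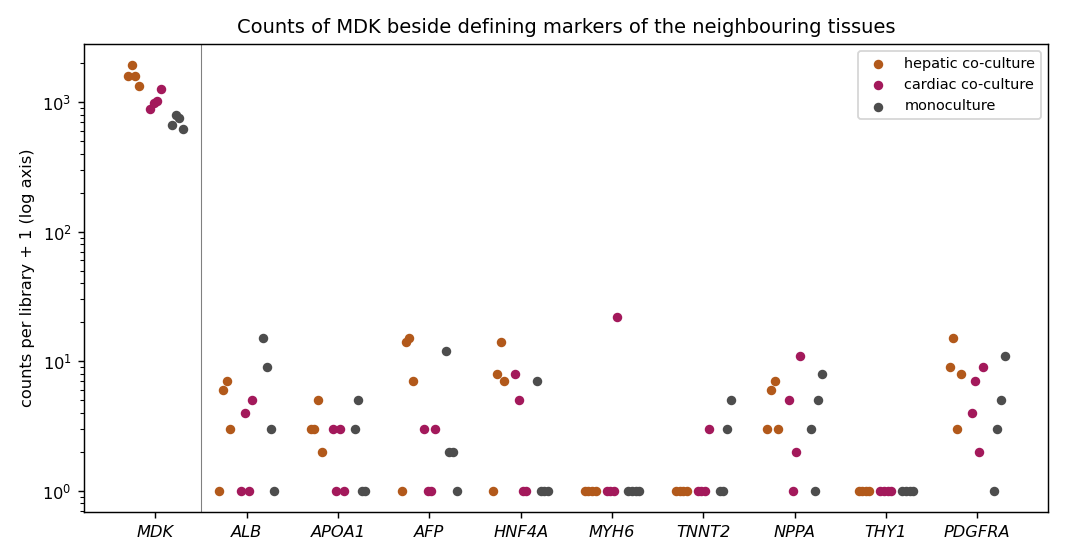
Counts per library plus 1, on a log axis, of MDK and of defining markers of hepatocytes (ALB, APOA1, AFP, HNF4A), cardiomyocytes (MYH6, TNNT2, NPPA) and fibroblasts (THY1, PDGFRA) in hepatic co-culture, cardiac co-culture and monoculture; points are libraries. MDK lies between 621 and 1923 counts, while the markers drawn lie at 21 counts or fewer in every library. Other markers of the same lists, not drawn, had more counts in every group: SERPINA1 880 to 3208, TTN 457 to 833 and COL1A1 123 to 528 per library.

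Among its binding proteins, SDC4 had the highest level per kilobase of annotated exon in all 3 groups; by the length of the longest coding transcript it overlapped NCL in monoculture. SDC4 is the syndecan of focal adhesions, where it works with integrins; it lies on the minus strand of chromosome 20 (45325288 to 45348424; ENSG00000124145). SDC4 stood at 715, 489, 643 and 623 CPM in hepatic replicates 1 to 4, at 734, 659, 671 and 557 CPM in cardiac replicates 1 to 4, and at 479, 508, 490 and 519 CPM in monoculture replicates 1 to 4. All cardiac libraries lay above all monoculture libraries, whereas hepatic replicate 2 lay within the monoculture range. The log2 fold change was 0.31 ± 0.10 in hepatic co-culture over monoculture, 0.39 ± 0.10 in cardiac co-culture over monoculture and 0.09 ± 0.10 in cardiac over hepatic co-culture. The first 2 were past the threshold, and each was lost in 5 of the 17 other settings, all with 1 library left out. The hepatic call was lost without hepatic replicate 1 (0.23), 3 (0.29) or 4 (0.30) or monoculture replicate 1 (0.28) or 3 (0.29). The cardiac call was lost without cardiac replicate 1 (0.33), 2 (0.39) or 3 (0.38) or monoculture replicate 1 (0.37) or 3 (0.38), and without cardiac replicate 4 the value was 0.46.

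The promoter of SDC4, known as a gene that inflammatory signals can switch on, is shown because its level was higher in both co-cultures. It was taken from RefSeq (GRCh38.p14, minus strand, chr20:45348375-45348674), from 250 bases before to 50 after the gene start, with a match to an NF-kB-like motif, spelled GGG, then any 3 letters, then TTCC, in capitals at position -97.
SDC4 promoter: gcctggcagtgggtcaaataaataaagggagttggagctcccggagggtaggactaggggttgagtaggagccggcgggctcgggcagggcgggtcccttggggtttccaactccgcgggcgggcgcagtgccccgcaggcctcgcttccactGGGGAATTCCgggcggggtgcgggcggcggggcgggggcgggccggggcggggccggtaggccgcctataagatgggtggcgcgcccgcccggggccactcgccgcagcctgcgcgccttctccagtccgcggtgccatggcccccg

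These letters were picked with the sequence in view and searched on both strands. They also matched once in a promoter of SDC1, and 2289 of 35116 promoters in the table (6.52%) hold them, so a match is common. The letters ACGTG, the core that hypoxia-inducible factors read, occurred among the members in NCL only, and 21.4% of all promoters hold them. The longer E-box CACGTG, to which MYC binds, is in 7.26% of all promoters and in no promoter of the members found. The table held promoters of 5 of the 6 members, and MDK was not among them. A match of letters is a description and shows no binding.

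SDC1, the epithelial syndecan that breast carcinomas often carry at high levels, lies on the minus strand of chromosome 2 (20200797 to 20225433; ENSG00000115884). SDC1 stood at 67.5, 79.8, 71.1 and 80.5 CPM in hepatic replicates 1 to 4, at 47.9, 47.9, 52.0 and 65.5 CPM in cardiac replicates 1 to 4, and at 70.4, 65.5, 60.6 and 64.2 CPM in monoculture replicates 1 to 4. The co-cultures lay on opposite sides of the monoculture: the hepatic libraries all lay above the cardiac ones, but each co-culture overlapped the monoculture. The log2 fold change was 0.20 ± 0.09 in hepatic co-culture over monoculture, -0.29 ± 0.09 in cardiac co-culture over monoculture and -0.49 ± 0.09 in cardiac over hepatic co-culture, and only the last was past the threshold. Cardiac replicate 4, at 65.5 CPM, was the one cardiac library within the monoculture range. Without it the cardiac value against monoculture was -0.40 and past the threshold, as was the value of -0.29 without hepatic replicate 1. With DESeq2 (-0.29) or without the low-count filter (-0.29) that value was past the threshold too.

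SDC3, a syndecan best known from the nervous system, lies on the minus strand of chromosome 1 (30869467 to 30908761; ENSG00000162512). SDC3 stood at 127, 136, 119 and 133 CPM in hepatic replicates 1 to 4, at 139, 132, 153 and 168 CPM in cardiac replicates 1 to 4, and at 166, 157, 153 and 156 CPM in monoculture replicates 1 to 4. All hepatic libraries lay below all monoculture libraries, and the cardiac libraries overlapped both. The log2 fold change was -0.30 ± 0.07 in hepatic co-culture over monoculture, past the threshold, -0.10 ± 0.07 in cardiac co-culture over monoculture and 0.20 ± 0.07 in cardiac over hepatic co-culture. SDC1 and SDC3 shared the most bases of the 3 tails above in the alignment without gaps, which does not measure how alike they are. They had opposite signs in hepatic co-culture over monoculture, with SDC1 short of the threshold.

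The syndecan not among the members, SDC2, averaged 42.2 ± 1.32 CPM in hepatic co-culture, 41.0 ± 3.80 CPM in cardiac co-culture and 49.6 ± 3.75 CPM in monoculture. SDC2 fell in both co-cultures, with a log2 fold change of -0.24 ± 0.08 in hepatic (adjusted p = 0.0346) and -0.28 ± 0.08 in cardiac co-culture (adjusted p = 0.0403) over monoculture, and these calls were lost in 7 and 10 of the 17 other settings. The hepatic call was lost without monoculture replicate 2 (-0.23) or 3 (-0.19) or hepatic replicate 2 (-0.24), 3 (-0.22) or 4 (-0.22). The cardiac call was lost without any of the monoculture libraries, hepatic replicate 3 or cardiac replicates 1 to 3, with values from -0.33 to -0.23. Per kilobase of exon, SDC4 made up 82.8 ± 3.01% of the summed level of the 4 syndecans in hepatic co-culture, 84.7 ± 2.84% in cardiac co-culture and 78.8 ± 0.95% in monoculture. The share of SDC3 was 6.51 ± 1.12%, 7.16 ± 1.30% and 9.24 ± 0.47% in the same order of groups, and that of SDC1 was 7.43 ± 1.48%, 5.09 ± 1.23% and 7.49 ± 0.55%. SDC4 was thus the main syndecan transcript in every group.

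LRP1, a giant endocytic receptor that clears proteases, their inhibitors and lipoproteins from the cell surface, lies on the plus strand of chromosome 12 (57128493 to 57213351; ENSG00000123384) and has 4544 codons. LRP1 stood at 424, 202, 302 and 202 CPM in hepatic replicates 1 to 4, at 264, 425, 296 and 187 CPM in cardiac replicates 1 to 4, and at 110, 180, 112 and 138 CPM in monoculture replicates 1 to 4. Every co-culture library lay above every monoculture library, yet the SD within each co-culture was larger, relative to the mean, than for any other member. The log2 fold change was 1.07 ± 0.32 in hepatic co-culture over monoculture, past the threshold, 1.12 ± 0.32 in cardiac co-culture over monoculture, not past it, and 0.05 ± 0.32 in cardiac over hepatic co-culture. The hepatic call was lost in 7 of the 17 other settings, and without hepatic replicate 1, the highest library, the value was 0.80. It was also lost without hepatic replicate 3 (1.03) or monoculture replicate 1 (0.97), 3 (0.98) or 4 (1.07). Without cardiac replicate 4, the lowest cardiac library, the cardiac value was 1.28 and past the threshold. The values of 1.12 without hepatic replicate 1 and 1.12 with DESeq2 were past it too.

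NCL, the nucleolar protein nucleolin, works in the making of ribosomal RNA and can also appear at the cell surface, where it binds midkine. It lies on the minus strand of chromosome 2 (231453531 to 231483641; ENSG00000115053) and hosts the small nucleolar RNAs SNORA75, SNORD20 and SNORD82 in its introns. NCL stood at 419, 639, 572 and 644 CPM in hepatic replicates 1 to 4, at 680, 673, 707 and 835 CPM in cardiac replicates 1 to 4, and at 821, 796, 766 and 856 CPM in monoculture replicates 1 to 4. All hepatic libraries lay below all others, and of the cardiac libraries only replicate 4 reached the monoculture range. The log2 fold change was -0.51 ± 0.11 in hepatic co-culture over monoculture, past the threshold, -0.16 ± 0.11 in cardiac co-culture over monoculture and 0.35 ± 0.11 in cardiac over hepatic co-culture. The last was not past the threshold although the groups did not overlap, and it was past it in 3 of the 17 other settings. These were DESeq2 (0.35), no low-count filter (0.35) and the replicate block (0.36). Over the 17 settings it ranged from 0.23 to 0.41, and the cardiac value over monoculture from -0.24 to -0.13.

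**Figure D3:**
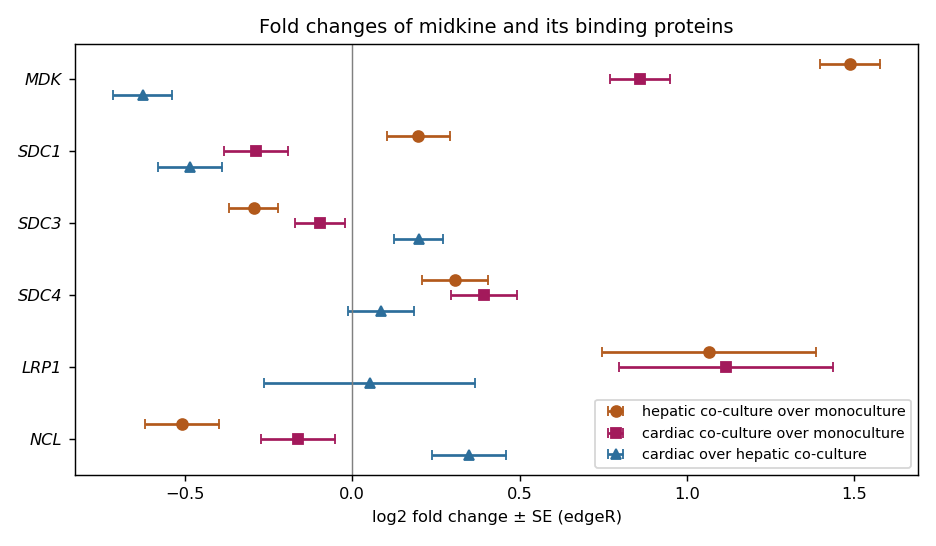
Log2 fold change of each member with its SE from edgeR (x axis) in hepatic co-culture over monoculture, cardiac co-culture over monoculture and cardiac over hepatic co-culture; the vertical line marks no difference. MDK and LRP1 have the highest values over monoculture, from 0.86 to 1.49, NCL lies at -0.51 in hepatic co-culture, and the bars of LRP1 are the widest, with an SE of 0.32.

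Counted over the members, 5 of 6 were called in hepatic co-culture over monoculture, MDK, SDC4 and LRP1 higher and SDC3 and NCL lower, where 28.0% of the 17468 tested genes were called (14.4% higher and 13.6% lower). In cardiac co-culture over monoculture 2 of 6 were called, MDK and SDC4, both higher, where 8.26% of all tested genes were called (4.93% higher and 3.33% lower). In cardiac over hepatic co-culture 2 of 6 were called, MDK and SDC1, both lower, where 6.18% of all tested genes were called (3.27% higher and 2.91% lower). The members' median log2 fold change was 0.25, 0.15 and 0.07 in these 3 comparisons, and that of all tested genes 0.01, 0.01 and -0.00336. Libraries did not overlap for 4, 3 and 3 of the members, where 30.5%, 15.2% and 11.9% of all tested genes did not overlap. Since the members were picked with these contrasts known, nothing is read from the counts. In 4 of the 6 members, SDC1, SDC4, LRP1 and NCL, replicate 4 was the cardiac library nearest to the monoculture mean.

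Levels of different genes were set side by side as CPM per kilobase of annotated exon. In hepatic co-culture the order was SDC4 at 236 ± 36.1, NCL at 82.0 ± 15.1, MDK at 23.5 ± 2.09, SDC1 at 20.8 ± 1.80, SDC3 at 18.2 ± 1.05 and LRP1 at 13.6 ± 5.05 CPM per kilobase. In cardiac co-culture it was SDC4 at 251 ± 28.1, NCL at 104 ± 10.9, SDC3 at 20.9 ± 2.23, MDK at 15.2 ± 1.15, SDC1 at 14.8 ± 2.32 and LRP1 at 14.1 ± 4.76 CPM per kilobase. In monoculture it was SDC4 at 191 ± 6.96, NCL at 117 ± 5.50, SDC3 at 22.4 ± 0.77, SDC1 at 18.1 ± 1.13, MDK at 8.37 ± 0.66 and LRP1 at 6.48 ± 1.57 CPM per kilobase. In monoculture only LRP1 ranked below MDK, and overlapped it. In hepatic co-culture MDK ranked above SDC1, SDC3 and LRP1, and neighbours in the order from MDK down to LRP1 overlapped in their libraries. In cardiac co-culture MDK and SDC1, and SDC1 and LRP1, overlapped. With the longest protein-coding transcript as the length, NCL (201) and SDC4 (191 CPM per kilobase) overlapped in monoculture, and MDK (28.6) lay above SDC3 (23.1) in cardiac co-culture.

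The remaining genes of midkine biology were taken from 6 lists of 120 genes in all, none of them a member, of which 107 were tested. The lists too were chosen with earlier results of these data known. Their shares, here and list by list below, are therefore a description and show no enrichment. In hepatic co-culture over monoculture 48 of the 107 (44.9%, 16 higher and 32 lower) passed the threshold, beside 28.0% of all tested genes. In cardiac co-culture over monoculture 17 (15.9%, 9 higher and 8 lower) passed, beside 8.26%, and in cardiac over hepatic co-culture 17 (15.9%, 11 higher and 6 lower), beside 6.18%. The cardiac count against monoculture was 35 without cardiac replicate 4 and between 2 and 5 without any 1 of cardiac replicates 1 to 3 or monoculture replicates 1, 3 and 4. It was 11 in cardiac over hepatic co-culture without hepatic replicate 4.

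Of 15 tested genes for other midkine-binding proteins, 2 fell in hepatic co-culture over monoculture (13.3% called, beside 28.0% of all tested genes). In cardiac co-culture over monoculture 1 fell (6.67%, beside 8.26%). In cardiac over hepatic co-culture 0 were called by edgeR, beside 6.18%, or by DESeq2 (4 at an unadjusted p under 0.05 in edgeR). The list medians were 0.09, -0.04 and -0.12. With so few genes nothing is read from these counts. The count of lower genes in hepatic co-culture was 1 without monoculture replicate 2 or 3 or hepatic replicate 2, 3 or 4. LRP8, a lipoprotein receptor that also binds reelin, fell to 82.9 ± 7.72 CPM in hepatic co-culture, against 127 ± 23.9 CPM in monoculture (log2 fold change -0.62 ± 0.12, adjusted p = 0.00214). The other called gene was SDC2, above. PTN, the growth factor pleiotrophin and the sole close relative of midkine, averaged 6.98 ± 1.73 CPM in hepatic co-culture, 4.85 ± 0.60 CPM in cardiac co-culture and 6.38 ± 1.16 CPM in monoculture, with log2 fold changes of 0.13, -0.39 and -0.52 that did not pass. PTPRZ1 averaged at most 0.29 CPM in any group and ALK, with 2 to 16 counts per library, was too low to be tested. ITGB1 was abundant at 989 ± 73.0 CPM in hepatic co-culture, 891 ± 34.0 CPM in cardiac co-culture and 932 ± 47.1 CPM in monoculture. It was not called in any comparison.

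The enzymes that build and sulfate heparan and chondroitin sulfate, the sugar chains midkine holds, were tested for 29 genes. In hepatic co-culture over monoculture 4 rose and 9 fell (median -0.09), in cardiac co-culture over monoculture 2 rose (median -0.02), and in cardiac over hepatic co-culture 2 rose and 1 fell (median 0.09). The 9 lower genes of the hepatic comparison were 5 without hepatic replicate 3. The 2 higher genes in cardiac co-culture over monoculture were 0 without cardiac replicate 1, 2 or 3 or monoculture replicate 1, 3 or 4 and 1 without hepatic replicate 2, 3 or 4, without hepatic replicate 1 the counts were 3 higher and 1 lower, and without cardiac replicate 4 they were 3 higher and 3 lower. The 2 higher genes in cardiac over hepatic co-culture were 6 without hepatic replicate 1 and 1 without hepatic replicate 3 or 4 or cardiac replicate 2 or 4. HS3ST1, which adds a rare 3-O-sulfate to heparan sulfate, averaged 15.6 ± 0.93 CPM in hepatic co-culture, 7.21 ± 1.16 CPM in cardiac co-culture and 7.18 ± 1.27 CPM in monoculture. It rose in hepatic co-culture over monoculture (log2 fold change 1.12 ± 0.14, adjusted p = 2.39e-05) and was lower in cardiac than in hepatic co-culture (-1.12 ± 0.14, adjusted p = 6.47e-05). XYLT2, which starts the chains on the core protein, rose in hepatic co-culture (0.37 ± 0.08, adjusted p = 0.00276).

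CHST11, a chondroitin 4-O-sulfotransferase, fell in hepatic co-culture over monoculture (-0.43 ± 0.08, adjusted p = 5.51e-04) and was higher in cardiac than in hepatic co-culture (0.29 ± 0.08, adjusted p = 0.0329). CHST15, which makes the disulfated chondroitin sulfate E, stood at 206 ± 33.1 CPM in hepatic co-culture, 296 ± 36.4 CPM in cardiac co-culture and 223 ± 25.2 CPM in monoculture. It rose in cardiac co-culture over monoculture (0.41 ± 0.11, adjusted p = 0.0342) and was higher in cardiac than in hepatic co-culture (0.52 ± 0.11, adjusted p = 0.00914). Chondroitin sulfate E is one of the sugar structures known to hold midkine tightly. CHSY1, a chondroitin polymerase, rose in cardiac co-culture over monoculture (0.43 ± 0.12, adjusted p = 0.0466). CHSY1 averaged 165 ± 18.6 CPM in hepatic co-culture, 152 ± 24.5 CPM in cardiac co-culture and 113 ± 16.3 CPM in monoculture. The calls of CHST15 and CHSY1 over monoculture were lost in 6 and 9 of the 17 other settings, both without cardiac replicates 1, 2 or 3 or monoculture replicates 1, 3 or 4 (0.34 to 0.47), and that of CHSY1 also without hepatic replicate 2, 3 or 4 (0.43). The call of CHST11 in cardiac over hepatic co-culture was lost without hepatic replicate 3 (0.24) or 4 (0.27) or cardiac replicate 2 (0.29) or 4 (0.25).

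Of 15 tested genes for syndecan shedding, adaptors and partner integrins, 4 rose and 2 fell in hepatic co-culture over monoculture (median 0.08), 2 rose and 1 fell in cardiac co-culture over monoculture (median -0.02), and 2 fell in cardiac over hepatic co-culture (median -0.11). The 2 lower genes of the hepatic comparison were 0 without monoculture replicate 3 or hepatic replicate 3, and 1 without monoculture replicate 1, 2 or 4, hepatic replicate 2 or 4 or cardiac replicate 3. In cardiac co-culture over monoculture the 2 higher genes were 1 without monoculture replicate 1, 2 or 3 or cardiac replicate 1 or 3, and the lower count of 1 was 0 without monoculture replicate 1, 3 or 4, hepatic replicate 2 or 4 or cardiac replicate 1 or 3. Without cardiac replicate 2 no gene of the list was called there, and without cardiac replicate 4 the counts were 4 higher and 2 lower. The 2 lower genes in cardiac over hepatic co-culture were 1 without hepatic replicate 3 or cardiac replicate 3 or 4. ITGB3, which pairs with ITGAV to form an integrin that SDC1 helps to activate, averaged 66.0 ± 16.0 CPM in hepatic co-culture, 23.4 ± 7.73 CPM in cardiac co-culture and 9.94 ± 2.82 CPM in monoculture. Its log2 fold change was 2.73 ± 0.30 in hepatic (adjusted p = 1.66e-04) and 1.23 ± 0.30 in cardiac co-culture (adjusted p = 0.0341) over monoculture, and -1.50 ± 0.29 in cardiac over hepatic co-culture (adjusted p = 0.0133). The group means of ITGB3 therefore had the same order as those of MDK. Its cardiac call over monoculture was lost in 7 of the 17 other settings, among them without cardiac replicate 1 (1.26), 2 (1.01) or 3 (1.23) or monoculture replicate 1 (1.13), 2 (1.27) or 3 (1.13). The partner subunit ITGAV was not called in any comparison.

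MMP14, a membrane-bound protease that cuts syndecans and collagen, averaged 1031 ± 183 CPM in hepatic co-culture, 783 ± 117 CPM in cardiac co-culture and 508 ± 58.0 CPM in monoculture. It rose in hepatic (1.02 ± 0.13, adjusted p = 8.45e-05) and in cardiac co-culture (0.63 ± 0.13, adjusted p = 0.0147) over monoculture, and the cardiac call was lost without cardiac replicate 2 (0.56). ARF6, a small GTPase that steers syndecan recycling, was higher in hepatic co-culture than in monoculture (0.29 ± 0.07, adjusted p = 0.00472) and lower in cardiac than in hepatic co-culture (-0.27 ± 0.07, adjusted p = 0.0219), the last not without hepatic replicate 3 (-0.25) or cardiac replicate 3 (-0.27) or 4 (-0.23). Of the adaptors that hold the capital-letter end of the tails above, GIPC1 fell in cardiac co-culture over monoculture (-0.23 ± 0.07, adjusted p = 0.0458), a call lost in 10 of the 17 other settings, among them without cardiac replicates 1, 2 or 3 or monoculture replicates 1, 3 or 4 or hepatic replicates 2 or 4 (-0.26 to -0.20). Syntenin (SDCBP) had log2 fold changes of 0.15, -0.05 and -0.21 and was not called.

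LRP1 handles many ligands besides midkine, and 16 genes for its processing and ligands were tested. In hepatic co-culture over monoculture 3 rose and 3 fell (median -0.04), in cardiac co-culture over monoculture 3 rose and 2 fell (median 0.06), and in cardiac over hepatic co-culture 2 rose and 1 fell (median -0.04). The 3 higher genes in cardiac co-culture over monoculture were 0 without cardiac replicate 1, 2 or 3 or monoculture replicate 1, 3 or 4 or hepatic replicate 2 or 3, and 1 without hepatic replicate 4. The 2 lower genes there were 1 without cardiac replicate 1 or 3 or monoculture replicate 3 or 4 and 0 without cardiac replicate 2. The 2 higher genes in cardiac over hepatic co-culture were 1 without hepatic replicate 3 or 4, and the lower count of 1 was 0 without cardiac replicate 3 and 2 without cardiac replicate 4. PLAT, a clot-dissolving protease that LRP1 clears, rose in hepatic co-culture (0.50 ± 0.08, adjusted p = 3.10e-04). TFPI, a clotting inhibitor also cleared by LRP1, averaged 439 ± 43.9 CPM there, against 243 ± 30.3 CPM in monoculture (0.85 ± 0.14, adjusted p = 9.98e-04).

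In cardiac co-culture over monoculture the matrix protein THBS1 fell (-0.63 ± 0.12, adjusted p = 0.0125; -0.60 and not past the threshold without cardiac replicate 2), and so did CTGF, the growth factor also named CCN2 (-0.38 ± 0.10, adjusted p = 0.0367). THBS1 averaged 220 ± 18.2 CPM in hepatic co-culture, 202 ± 40.4 CPM in cardiac co-culture and 313 ± 43.1 CPM in monoculture. CTGF was also lower in cardiac than in hepatic co-culture (-0.46 ± 0.10, adjusted p = 0.0132). Its call over monoculture was lost without cardiac replicate 1, 2 or 3 or monoculture replicate 3 or 4 (-0.40 to -0.31), and that over hepatic co-culture without cardiac replicate 3 (-0.44). The lipoprotein component APOE rose in cardiac co-culture over monoculture (1.35 ± 0.38, adjusted p = 0.0416). APOE levels were low, at 3.80 ± 0.64 CPM in hepatic co-culture, 3.57 ± 1.74 CPM in cardiac co-culture and 1.39 ± 0.57 CPM in monoculture. Its cardiac call was lost in 9 of the 17 other settings, without cardiac replicates 1, 2 or 3 or monoculture replicates 1, 3 or 4 or hepatic replicates 2, 3 or 4 (1.09 to 1.52). CALR, a chaperone that also signals through LRP1 at the cell surface, was higher in cardiac than in hepatic co-culture (0.27 ± 0.07, adjusted p = 0.0232), a call lost without hepatic replicate 3 (0.26) or 4 (0.27). LRPAP1, the chaperone that escorts LRP1 itself, had log2 fold changes of -0.09, -0.03 and 0.06 and was not called.

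NCL works in the nucleolus with 19 tested genes for ribosomal RNA synthesis and processing, and those called went 1 way in each comparison. In hepatic co-culture over monoculture all 12 called genes fell (63.2% of the list, median -0.34), beside 13.6% of all tested genes called lower. In cardiac co-culture over monoculture the 3 called genes fell (median -0.19), beside 3.33% of all tested genes called lower, and in cardiac over hepatic co-culture the 5 called genes were higher (median 0.13), beside 3.27% called higher. The cardiac count over monoculture was 7 without cardiac replicate 4 and 0 without cardiac replicate 1, 2 or 3 or monoculture replicate 1, 3 or 4. The count over hepatic co-culture was 2 without hepatic replicate 3, and 3 without monoculture replicate 1, 2 or 4, hepatic replicate 1 or 4 or cardiac replicate 3 or 4, or with upper-quartile scaling. The hepatic count over monoculture stayed between 10 and 14 with any 1 library left out. The sign in hepatic co-culture over monoculture was that of NCL itself.

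POLR1A, the largest subunit of RNA polymerase I, averaged 112 ± 6.97 CPM in hepatic co-culture, 165 ± 29.8 CPM in cardiac co-culture and 189 ± 16.8 CPM in monoculture. Its log2 fold change was -0.76 ± 0.10 in hepatic co-culture over monoculture (adjusted p = 6.27e-05) and 0.56 ± 0.10 in cardiac over hepatic co-culture (adjusted p = 0.00259). UTP20, a processing factor of the small ribosomal subunit, fell in hepatic (-0.65 ± 0.10, adjusted p = 1.29e-04) and in cardiac co-culture (-0.40 ± 0.10, adjusted p = 0.0218) over monoculture. PES1 and BOP1 are partners in the making of the large subunit. PES1 fell in hepatic co-culture (-0.43 ± 0.07, adjusted p = 1.85e-04) and was higher in cardiac than in hepatic co-culture (0.32 ± 0.07, adjusted p = 0.00677).

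BOP1 fell in cardiac co-culture over monoculture (-0.42 ± 0.11, adjusted p = 0.0250), as did the polymerase subunit POLR1B (-0.24 ± 0.06, adjusted p = 0.0294). BOP1 averaged 101 ± 10.6, 111 ± 19.9 and 148 ± 9.70 CPM in hepatic co-culture, cardiac co-culture and monoculture. POLR1B averaged 50.3 ± 2.04, 55.0 ± 1.49 and 64.8 ± 0.93 CPM in the same order of groups. The cardiac calls of UTP20, BOP1 and POLR1B were lost in 6, 6 and 7 of the 17 other settings, each without cardiac replicates 1, 2 or 3 or monoculture replicates 1, 3 or 4 (-0.43 to -0.22). NOLC1, a nucleolar chaperone, was higher in cardiac than in hepatic co-culture (0.35 ± 0.09, adjusted p = 0.0214), a call lost without hepatic replicate 3 (0.35) or cardiac replicate 4 (0.29). The abundant nucleolar proteins NPM1 and FBL, whose counts pseudogenes can blur, were not called, with log2 fold changes between -0.11 and -0.01 in the 3 comparisons.

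**Figure D4:**
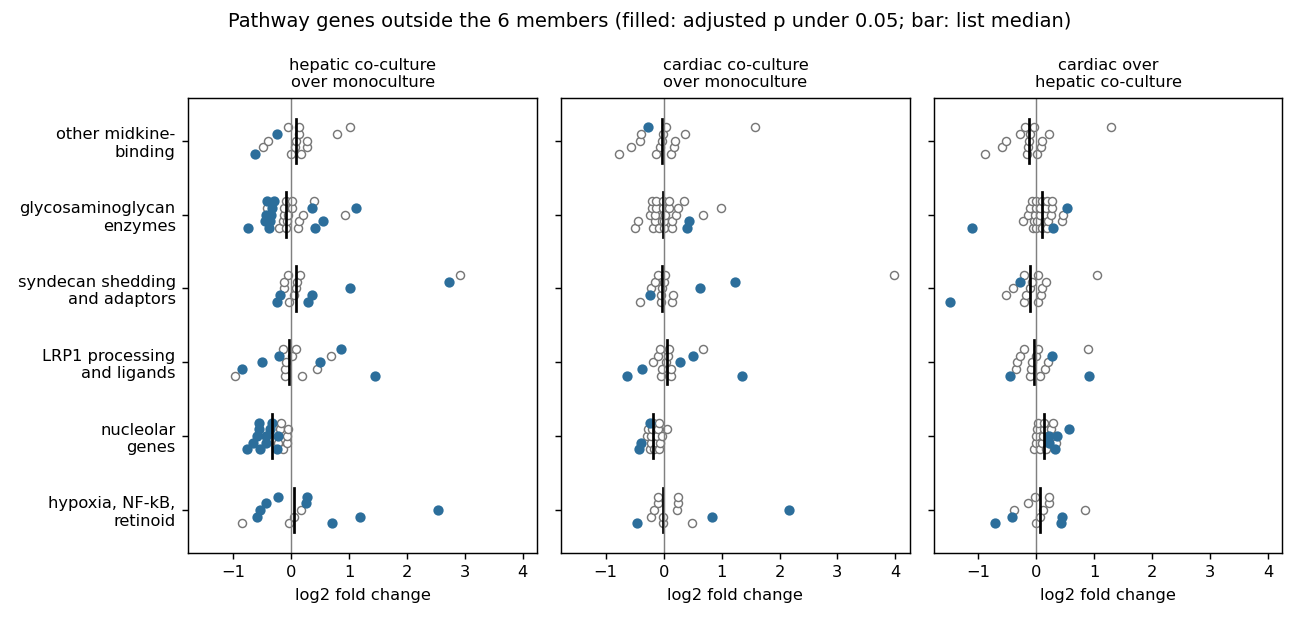
Log2 fold changes of the tested genes of the 6 pathway lists in hepatic co-culture over monoculture, cardiac co-culture over monoculture and cardiac over hepatic co-culture; points are genes, filled where the adjusted p from edgeR is under 0.05, and black bars are list medians. The called nucleolar genes lie left of 0 in the hepatic panel, with a list median of -0.34, while the medians of the other lists lie between -0.09 and 0.09 there.

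Midkine transcription is known to respond to retinoic acid, to hypoxia and to NF-kB, and 13 genes of these 3 routes were tested. In hepatic co-culture over monoculture 5 rose and 4 fell (69.2% called, beside 28.0% of all tested genes; median 0.05), in cardiac co-culture over monoculture 2 rose and 1 fell (median -0.01), and in cardiac over hepatic co-culture 2 were higher and 2 lower (median 0.06). The 5 higher genes of the hepatic comparison were 2 without monoculture replicate 3 or 4 or hepatic replicate 1, and 3 without monoculture replicate 1 or hepatic replicate 3. The 2 higher genes in cardiac co-culture over monoculture were 1 without cardiac replicate 1, 2 or 3 or monoculture replicate 1, 3 or 4, 4 without hepatic replicate 1 and 5, with 2 lower, without cardiac replicate 4. In cardiac over hepatic co-culture 1 gene was higher and 1 lower without hepatic replicate 2 or 4 or cardiac replicate 4, and 1 was lower without monoculture replicate 4, hepatic replicate 1 or cardiac replicate 1 or 3. DHRS3, which turns retinal back to retinol and is itself induced by retinoic acid, averaged 5.85 ± 0.80 CPM in hepatic co-culture, 4.50 ± 1.58 CPM in cardiac co-culture and 1.00 ± 0.20 CPM in monoculture. DHRS3 rose in hepatic (2.54 ± 0.26, adjusted p = 2.61e-06) and in cardiac co-culture (2.16 ± 0.26, adjusted p = 7.01e-04) over monoculture. CRABP2, which carries retinoic acid to its receptor, averaged 8.78 ± 1.55 CPM in hepatic co-culture, against 3.82 ± 0.90 CPM in monoculture (1.20 ± 0.20, adjusted p = 3.48e-04).

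RARA, a retinoic acid receptor, averaged 33.5 ± 6.39 CPM in hepatic co-culture, 36.4 ± 7.62 CPM in cardiac co-culture and 20.4 ± 5.39 CPM in monoculture. RARA rose in cardiac co-culture over monoculture (0.84 ± 0.20, adjusted p = 0.0290). That call was lost in 6 of the 17 other settings, without cardiac replicates 1, 2 or 3 or monoculture replicates 1, 3 or 4 (0.73 to 0.83). Its partner RXRA fell in hepatic co-culture over monoculture (-0.53 ± 0.09, adjusted p = 2.49e-04) and was higher in cardiac than in hepatic co-culture (0.43 ± 0.09, adjusted p = 0.00521). The retinoid genes thus did not all move one way. Retinol uptake through STRA6 and retinoic acid breakdown through CYP26A1 could not be followed well: STRA6 was not called and CYP26A1, with at most 8 counts per library, was too low to be tested. CYP26B1, another enzyme of retinoic acid breakdown, was high enough to be tested. It averaged 31.8 ± 1.34 CPM in hepatic co-culture, 37.1 ± 4.03 CPM in cardiac co-culture and 43.2 ± 5.29 CPM in monoculture.

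HIF1A, the oxygen-regulated subunit of the hypoxia factor, averaged 561 ± 27.0 CPM in hepatic co-culture, 421 ± 46.1 CPM in cardiac co-culture and 578 ± 65.8 CPM in monoculture. HIF1A fell in cardiac co-culture over monoculture (-0.46 ± 0.09, adjusted p = 0.00742) and was lower in cardiac than in hepatic co-culture (-0.41 ± 0.09, adjusted p = 0.00705), under all 17 other settings as well. EPAS1, the related factor HIF-2 alpha, averaged 79.5 ± 12.3 CPM in hepatic co-culture, 108 ± 9.08 CPM in cardiac co-culture and 120 ± 15.0 CPM in monoculture. EPAS1 was higher in cardiac than in hepatic co-culture (0.44 ± 0.11, adjusted p = 0.0198), a call lost without hepatic replicate 2 (0.35) or 4 (0.43) or cardiac replicate 4 (0.39). HIF protein is set mainly by its breakdown, which RNA does not show. Of the NF-kB genes, NFKB1 averaged 66.1 ± 5.89, 76.5 ± 4.29 and 77.1 ± 3.16 CPM in hepatic co-culture, cardiac co-culture and monoculture. RELA averaged 123 ± 15.8, 123 ± 9.35 and 103 ± 6.09 CPM in the same order of groups.

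The genes whose level followed that of MDK most closely over the 12 libraries were picked by the root-mean-square difference of their centred logCPM over the 11618 protein-coding genes that were tested and had a mean logCPM of more than 1. PCSK4 was the closest, at 0.10 on the log2 scale, followed by LAMA3 at 0.17, SBK3 at 0.19, GSTM2 at 0.20 and SLC2A12 at 0.20, where the median gene lay at 0.65. PCSK4, a proprotein convertase known mainly from the testis, averaged 14.6 ± 1.72 CPM in hepatic co-culture, 9.79 CPM in cardiac co-culture and 5.07 CPM in monoculture. LAMA3, a laminin chain of epithelial basement membranes, averaged 140, 104 and 62.5 CPM in hepatic co-culture, cardiac co-culture and monoculture.

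The glutathione transferase GSTM2, whose close paralogs make its counts uncertain, averaged 6.32, 5.17 and 2.70 CPM and the glucose transporter SLC2A12 28.0, 14.8 and 10.5 CPM in hepatic co-culture, cardiac co-culture and monoculture. SBK3, a predicted kinase, averaged 8.86, 6.62 and 4.22 CPM in the same order of groups. All 5 therefore had the order of MDK, which the choice by likeness makes likely, so it is a description.

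**Figure D5:**
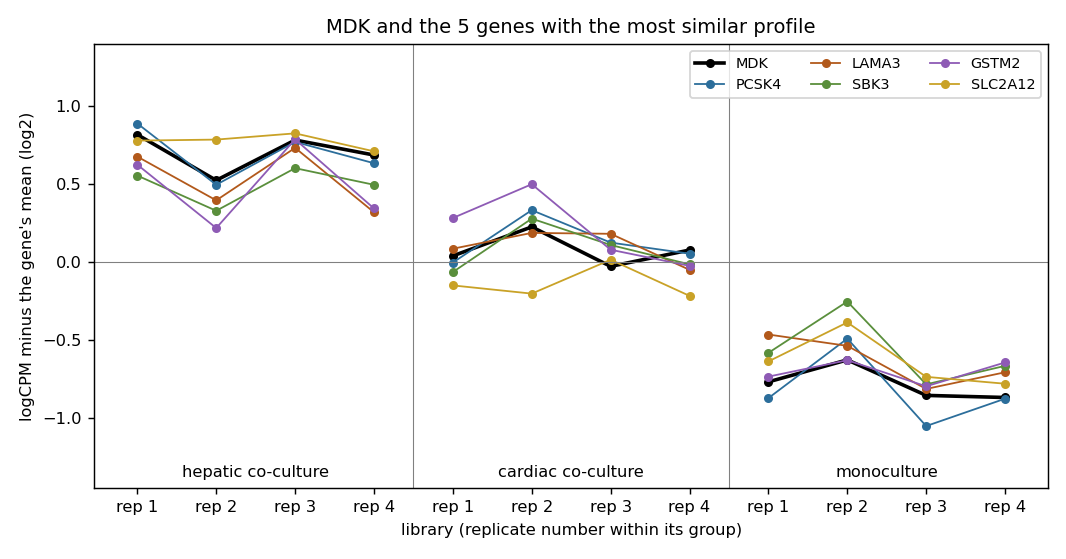
Centred logCPM (each gene's mean over the 12 libraries subtracted, log2 scale) of MDK and the 5 most similar genes in each library of hepatic co-culture, cardiac co-culture and monoculture; lines only join the libraries of a group for reading. PCSK4 stays closest to MDK, with a root-mean-square difference of 0.10, and all 6 genes lie above 0 in hepatic co-culture and below 0 in monoculture.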

How the data were processed

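RNA of the cancer tissue was sequenced after poly(A) selection, per the labels' protocols, which describe a stranded and an unstranded kit without saying which was used. The authors deposited raw counts per Ensembl gene for 12 libraries. The submitters' processing notes name the build GRCh38 and, with no settings, HISAT2 2.2.1, DESeq2 1.42.0 and featureCounts 2.0.6; which annotation and strand setting were used, and how reads with several matches were treated, is not given here. Reads of genes that overlap on opposite strands therefore cannot be told apart.

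All 58735 identifiers were found in GENCODE 29, which gave symbols, lengths and coordinates. Library totals were 26.2 to 42.4 M counts, and the 17468 genes passing edgeR's filterByExpr held 99.9% of them. From the deposited counts, TMM-scaled counts per 1e6 (CPM) were computed, and edgeR 4.0.16 with limma 3.58.1 in R 4.3.3 tested the genes in 1 robust quasi-likelihood fit over all libraries with group as the factor. Tests were two-sided, with Benjamini-Hochberg adjustment over all tested genes and a threshold of 0.05. The fit was tested on simulated data. The common biological coefficient of variation was 14.9%. logCPM used a prior count of 2.

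The members and lists were chosen with earlier results of these data known. Genes named are the members, the 3 called genes of smallest adjusted p per list and comparison, PTN, PTPRZ1, ALK, SDC2 and ITGB1, and the 5 genes most like MDK; further list genes were named after their values were seen, and 1 gene that the rule names is not reported here. Alternatives were no low-count filter, DESeq2, its size factors, each library left out, a replicate block, upper-quartile scaling and, added after seeing the data, another transcript length. No library pair agreed within sampling noise: the chi-square per gene of 18 replicate pairs was 8.68 to 56.7.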

Additional observations from a re-analysis of the deposited data

Results flagged for a closer look

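In 5 of the 117 groups of 4 libraries examined, 1 library lay far from the other 3 by Dixon's test, and chance alone flags about 1 group in 20. None of the 18 groups of the members was among them. CRABP2 had 5.16 CPM in monoculture replicate 2, against 3.24 to 3.55 CPM in the other monoculture libraries. ITGB3 had 42.2 CPM in hepatic replicate 4, against 72.4 to 76.3 CPM in the other hepatic libraries. PTPRZ1 had 0.50 CPM in cardiac replicate 4, against 0.0733 to 0.0916 CPM in the other cardiac libraries. RARA had 43.0 CPM in hepatic replicate 1, against 29.9 to 31.0 CPM in the other hepatic libraries. UTP20 had 90.6 CPM in monoculture replicate 2, against 102 to 104 CPM in the other monoculture libraries.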

How the results depend on the processing

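Over the members, the genes named by the rule and the 5 genes most like MDK, 1513 values under other settings were compared with the main ones: 1374 stayed on the same side of the threshold, 128 lost a call, 11 gained one and 0 calls changed sign. In cardiac co-culture over monoculture the count of called genes was 1443, against 2275 with DESeq2 and 2219 without the low-count filter, and the members called were 2, against 4 with DESeq2. Upper-quartile scaling gave 1076 higher and 414 lower genes there (72.2% higher), against 862 and 581 (59.7%). Of the 6 members, 4 kept their rank per kilobase in monoculture with the other transcript length.

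With 1 library left out, called genes ranged from 3660 to 5529 in hepatic co-culture over monoculture, from 263 to 3378 in cardiac co-culture over monoculture and from 676 (without hepatic replicate 3) to 1269 in cardiac over hepatic co-culture. The cardiac count over monoculture was 523, 263, 397 and 3378 without cardiac replicates 1, 2, 3 and 4, and 558, 369 and 518 without monoculture replicates 1, 3 and 4. Pathway genes called ranged from 35 to 52, from 2 to 35 and from 11 to 19 in the 3 comparisons, and members called from 3 to 5, from 1 to 4 and from 2 to 2. The members' count in hepatic co-culture was 3 without monoculture replicates 1 or 3 or hepatic replicates 1 or 3. The cause of these shifts was not tested.

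The replicate numbers did not pair the libraries: same-numbered libraries had correlations of -0.08 to 0.11, with 1 of 12 pairs over 0.1, and 3 of 12 libraries correlated best with their own number. With the replicate block, 4660, 1310 and 891 genes, 44, 16 and 16 pathway genes and 4, 2 and 3 members were called in hepatic over monoculture, cardiac over monoculture and cardiac over hepatic. Depth limits PTPRZ1 and ALK, which had at most 20 and 16 counts per library.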
